A study of Homo sapiens and Homo sapiens
Mus with 12 samples.

Results

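Cells remove worn or surplus mitochondria by mitophagy, a selective form of autophagy. Receptors in the outer mitochondrial membrane, of which BNIP3, BNIP3L (also called NIX), FUNDC1 and FKBP8 are examples, bind ATG8 proteins on the growing autophagosome through a short LC3-interacting region. In a second route, the kinase PINK1 gathers on damaged mitochondria and marks them with phosphorylated ubiquitin, which adaptors such as SQSTM1 (p62) and OPTN (optineurin) link to the same ATG8 proteins. MAP1LC3B, GABARAPL1 and GABARAPL2 are members of that ATG8 family. BNIP3 and BNIP3L are known as genes that hypoxia-inducible factors turn on.

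These 10 genes, 4 receptors, 1 kinase, 2 adaptors and 3 ATG8 proteins, were followed through RNA-seq counts of 21466 genes in cultured cells and 26813 human genes in tumors, and all 10 were found in both tables. They were named for their roles but picked from a first look at measured values. Which values served is not recorded, so the differences between the CDH11 knockdown (KD) and shCtrl libraries in these same counts were treated as used. Differences of the 10 genes between shCtrl, sh#1 and sh#2 are therefore given as a description, with standard errors and no p-value of their own. Counts of members past the threshold of the fit over all genes are printed beside the share of all genes past it, and support nothing. Tests are given for 75 other genes of the pathway and for mouse genes of the tumors. That list and these tests were also chosen with earlier results of these data known, which limits their p-values.

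All cells were UM-UC-3, an established human bladder cancer line, that carried a GIPZ lentiviral shRNA vector with GFP and were sorted as GFP-positive cells. The shCtrl vector was non-silencing, and sh#1 and sh#2 were different hairpins against CDH11, which encodes the adhesion protein cadherin-11. There were 3 cultured libraries per group, from cells grown for 24 h before RNA extraction. There were 5 tumors per group, grown subcutaneously from cells in Matrigel in male nude mice (BALB/cAJcl-nu/nu) injected at 5 weeks of age and sampled 4 weeks later. Nude mice lack a thymus and mature T cells but keep other immune cells. Whether a line was 1 clone is not given in the sources used here, nor whether the 3 libraries of a cultured group came from separate cultures, so the p-values measure the spread between these libraries, which may be technical.

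Each cultured library held 2273182 to 2777019 counts, and each tumor held 414849 to 1248977 human and 94406 to 220238 mouse counts. The targeted gene CDH11 had 2 to 4 counts in the shCtrl libraries and 0 to 2 in the KD libraries of cultured cells, too few to test. In tumors it had 5 to 32 counts with shCtrl, 1 to 9 with sh#1 and 2 to 14 with sh#2. The cultured cells expressed KRT8 (253 to 345 counts), KRT18 (287 to 539) and VIM (5189 to 8893). Of the other urothelial and epithelial markers listed, KRT7 (5 to 14), GATA3 (2 to 6) and PPARG (1 to 8) had few counts in all 9 libraries. KRT19 had 0 to 3 counts, and KRT5 and UPK2 had 0 to 1. UPK1B, UPK3A, CDH1 and EPCAM had no count in any of the 9 libraries. The sh#1 tumor 1 stood apart, with the lowest human total and mouse counts at 30.0% of its total against 10.4% to 18.8% in the other 14 tumors. The tumor log2 fold changes printed for BNIP3, BNIP3L and MAP1LC3B that moved by over 1.5 times without it are given both ways. By a deposited list of barcodes, the 5 tumors of each group shared a library mix, so mix and group cannot be told apart.

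BNIP3 was 1.39 times its mean shCtrl level with sh#1 and 3.15 times with sh#2 in cultured cells. Levels are in normalized CPM, read counts scaled to a common library total with TMM factors. BNIP3 measured 502, 551 and 521 CPM in the shCtrl libraries, 721, 723 and 737 CPM with sh#1, and 1707, 1621 and 1633 CPM with sh#2. The 3 groups did not overlap and each hairpin lay above shCtrl in every library. The log2 fold change against shCtrl was 0.47 ± 0.06 (SE, n = 3 against 3) for sh#1 and 1.66 ± 0.06 for sh#2, and the difference of sh#1 from sh#2 was -1.19 ± 0.06. With both hairpins as 1 KD group of 6, the log2 fold change was 1.18 ± 0.39, where the large error holds the gap between the hairpins.

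BNIP3L (ENSG00000104765, chromosome 8, 26383054 to 26505636, plus strand), the closest relative of BNIP3 among the receptors, had the same order of groups and measured 1.73 and 3.42 times its mean shCtrl level. It measured 226, 225 and 239 CPM in shCtrl, 398, 394 and 404 CPM with sh#1, and 817, 782 and 763 CPM with sh#2. Again no library of one group reached the range of another. On the log2 scale the changes were 0.79 ± 0.06 for sh#1, 1.78 ± 0.06 for sh#2 and 1.36 ± 0.32 for KD. Across the 9 libraries the log2 levels of BNIP3 and BNIP3L correlated with r = 0.98, which describes 3 groups in steps and not 9 independent points.

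**Figure D1:**
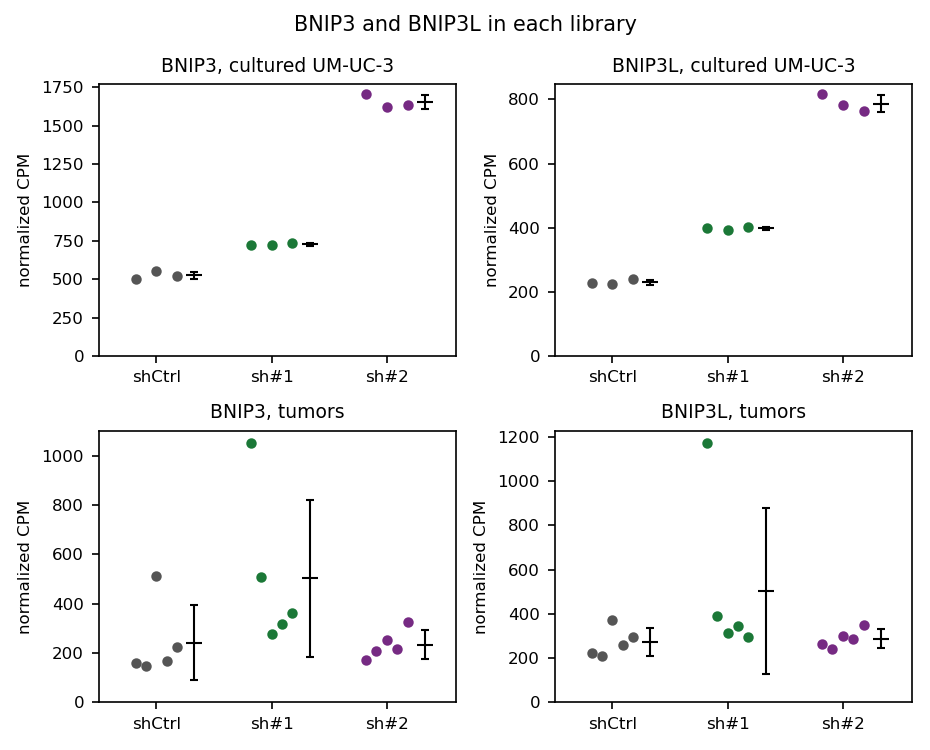
Normalized CPM of BNIP3 and BNIP3L in each library of cultured UM-UC-3 cells (top, 3 per group) and tumors (bottom, 5 per group), with mean ± SD as black bars. In culture the groups form 3 separate steps with sh#2 at the top, whereas in tumors sh#2 lies within the shCtrl range and 1 sh#1 tumor reaches 1052 CPM for BNIP3 and 1174 CPM for BNIP3L.

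BNIP3 (ENSG00000176171) lies on chromosome 10, 131967684 to 131981967, minus strand in hg38 with the GENCODE 44 annotation. The RefSeq promoter table (GRCh38.p14, 250 bases before to 50 after a start) held 10 promoters of 7 of the 10 members, with no entry for BNIP3L, FKBP8 or PINK1. It was searched on both strands for ACGTG and GCGTG, the core letters of a hypoxia response element, where the 2 strands of CACGTG count as overlapping matches. BNIP3 had 6 matches, 104 to 143 bases before the start, MAP1LC3B had 4 and GABARAPL2 had 2. The promoters of FUNDC1, SQSTM1 (3 entries), OPTN (2 entries) and GABARAPL1 had none. Of all 35116 promoters, 48.4% held at least 1 match, 4.4% at least 4 and 0.923% at least 6. The stretches below show how close together matches (in capitals) sit in the member with most matches, where the stretch holds 4 of the 6, and in a member whose level hardly differed between groups, where it holds both. They cover chr10:131982041-131982070, minus strand, for BNIP3 and chr16:75566270-75566299, plus strand, for GABARAPL2.
BNIP3: cgcgCACGCgccgCACGTGccaCACGCacc
GABARAPL2: ctttACGTGcggccccgccccttgGCGTGg
A match is a string of letters and not a measured binding site. Of the 3 members with a match, BNIP3 and MAP1LC3B lay above shCtrl in all KD libraries of cultured cells and GABARAPL2 did not. Of the 4 without one, SQSTM1 and OPTN lay above shCtrl in all KD libraries and FUNDC1 and GABARAPL1 did not. The share of all genes separated in this way is not given here, and these levels were treated as used in picking the members. Whether a match goes with a higher level was not tested.

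The other receptors had low counts and smaller differences. FUNDC1, a receptor known from hypoxic mitophagy, was covered by 29, 47 and 28 counts in shCtrl cells, by 32, 36 and 29 with sh#1 and by 15, 21 and 20 with sh#2. Only sh#2 lay wholly below shCtrl, with a log2 fold change of -0.62 ± 0.27 against -0.09 ± 0.24 with sh#1. Without shCtrl library 2, the one with 47 counts, these values were -0.31 and 0.22. FKBP8, an outer membrane receptor that also binds BCL2, measured 16.1, 17.2 and 13.3 CPM in shCtrl, 20.9, 22.2 and 15.9 CPM with sh#1, and 24.3, 20.1 and 23.4 CPM with sh#2. The sh#1 libraries of FKBP8 overlapped shCtrl and the sh#2 libraries lay above it, with log2 fold changes of 0.32 ± 0.20 and 0.54 ± 0.20.

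PINK1 was the member on which the hairpins lay on opposite sides of shCtrl. It measured 26.4, 26.2 and 24.0 CPM in shCtrl, 18.9, 22.2 and 19.0 CPM with sh#1, and 30.8, 29.6 and 29.2 CPM with sh#2. Every sh#1 library was below and every sh#2 library above the shCtrl range, so that the log2 fold changes of -0.35 ± 0.17 and 0.23 ± 0.16 gave -0.05 ± 0.18 for KD. PINK1 (chromosome 1, 20633458 to 20651511, plus strand) shares 39.5% of its exonic bases with the antisense gene PINK1-AS, including all of its last 500, and use of strand in the counting is not given in the sources used here.

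Both adaptors stood above shCtrl with each hairpin. SQSTM1, which binds ubiquitin on cargo and carries it to ATG8 proteins, measured 149, 120 and 126 CPM in shCtrl, 182, 200 and 157 CPM with sh#1, and 284, 258 and 240 CPM with sh#2. OPTN, a ubiquitin-binding adaptor of PINK1-dependent mitophagy, measured 65.7, 53.7 and 57.9 CPM in shCtrl, 70.5, 80.4 and 68.0 CPM with sh#1, and 127, 121 and 132 CPM with sh#2. For both genes every KD library exceeded every shCtrl library, and sh#2 exceeded sh#1. The log2 fold changes were 0.44 ± 0.09 and 0.99 ± 0.09 for SQSTM1 and 0.30 ± 0.11 and 1.10 ± 0.10 for OPTN, with sh#1 and sh#2 in that order.

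Of the ATG8 proteins, MAP1LC3B, the LC3 form most used to mark autophagosomes, was above shCtrl in all 6 KD libraries. It measured 41.7, 47.6 and 45.3 CPM in shCtrl, 70.5, 58.7 and 51.8 CPM with sh#1, and 66.3, 81.2 and 77.9 CPM with sh#2, with log2 fold changes of 0.42 ± 0.13 and 0.74 ± 0.12. The GABARAP relatives differed less. GABARAPL1 (15 to 31 counts) had log2 fold changes of 0.00 ± 0.28 with sh#1 and 0.49 ± 0.27 with sh#2 (0.29 without shCtrl library 3), and GABARAPL2 (85 to 126 counts) of 0.13 ± 0.13 and -0.03 ± 0.13. MAP1LC3B has a near copy, MAP1LC3B2, with 97.9% identity over 746 aligned bases and 20 to 55 counts, and adding its counts gave 0.61 for KD in place of 0.59.

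**Figure D2:**
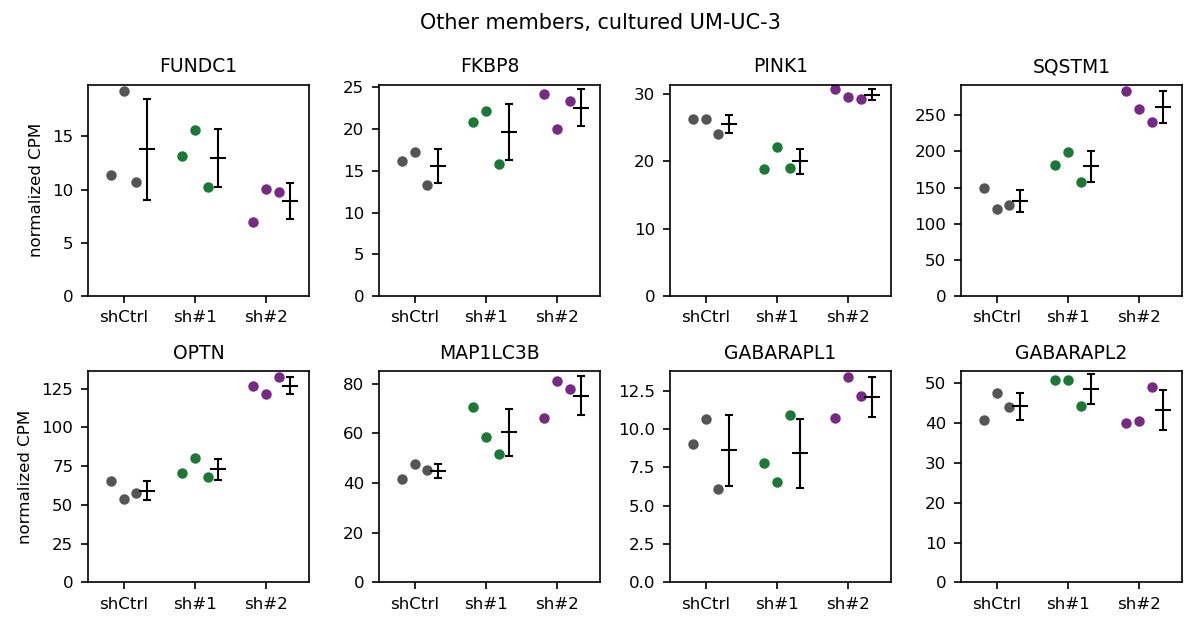
Normalized CPM of the 8 other members in each cultured library, with mean ± SD as black bars and each axis from 0. SQSTM1, OPTN and MAP1LC3B lie above shCtrl with both hairpins, and PINK1 lies below it with sh#1 and above it with sh#2.

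In culture, then, BNIP3, BNIP3L, SQSTM1, OPTN and MAP1LC3B had every KD library above every shCtrl library, and no member had every KD library below. The share of all genes with such a separation is not given here, so this describes the members only. At q under 0.05, 3 members were called higher for KD (BNIP3L, SQSTM1 and MAP1LC3B) and 0 lower, where edgeR called 9.12% of the 9859 genes tested higher and 8.32% lower. The study also asked for a log2 fold change past 1 in size in cultured cells, and with that limit, tried after seeing the data, 1 member (BNIP3L) was called higher for KD and 0 lower (2.29% and 1.81% of all genes). Under the same limit the counts higher and lower were 0 and 0 with sh#1 (1.9% and 1.62%), 3 (BNIP3, BNIP3L and OPTN) and 0 with sh#2 (4.16% and 5.26%), and 0 and 1 (BNIP3) for sh#1 against sh#2 (1.47% and 1.94%). Without that limit the count of 0 lower for KD stayed 0 at an unadjusted p under 0.05 and with DESeq2, another count test. BNIP3 was not among the 3, although it differed from shCtrl with each hairpin, and was called once the hairpins were fitted as separate groups and averaged, which gave 6 members called. With sh#1, 5 members were called higher and 0 lower (background 11.8% and 10.6%), and with sh#2, 6 and 0 (19.5% and 18.8%). Between the hairpins 0 members were higher with sh#1 and 6 were lower (11.2% and 13.5%). At an unadjusted p under 0.05 the counts lower were 1 for sh#1 (PINK1) and 1 for sh#2 (FUNDC1), with 0 by DESeq2 in each, and between the hairpins 0 were higher by both measures. The share of all genes past that unadjusted cut is not given here. The KD and hairpin contrasts were treated as used in picking the members, so the counts are no evidence about them. The KD count fell to 1 without shCtrl library 1, 2 or 3 and reached 4 without sh#1 library 1 or 2 and 5 without sh#1 library 3, and the sh#1 count fell to 3 without sh#1 library 1. Without shCtrl library 1 or 3, FUNDC1 was called lower with sh#2 (1 member).

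In tumors the order of the hairpins was the reverse of that in culture, with sh#1 highest and sh#2 near shCtrl for both BNIP3 and BNIP3L. BNIP3 measured 160, 148, 513, 169 and 224 CPM in the shCtrl tumors, 1052, 508, 279, 316 and 363 CPM with sh#1, and 171, 210, 252, 214 and 325 CPM with sh#2. BNIP3L measured 223, 211, 371, 260 and 296 CPM in shCtrl, 1174, 392, 313, 347 and 296 CPM with sh#1, and 263, 239, 298, 286 and 351 CPM with sh#2. All groups overlapped, and the highest shCtrl tumor of both genes was tumor 3 and the highest sh#1 tumor was tumor 1. Log2 fold changes were 1.02 ± 0.43 for sh#1 and -0.05 ± 0.44 with sh#2 for BNIP3 (n = 5 against 5), and 0.84 ± 0.36 and 0.08 ± 0.36 for BNIP3L. Cultured cells and tumors were normalized separately, so levels are compared within each. In bulk tumor RNA, more cells with a transcript and more of it per cell cannot be told apart.

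These tumor values moved with single libraries. Without sh#1 tumor 1, the sh#1 log2 fold change was 0.60 for BNIP3 and 0.31 for BNIP3L. The KD values were then 0.28 in place of 0.57 for BNIP3 and 0.19 in place of 0.51 for BNIP3L. Without shCtrl tumor 3 the sh#1 value was 1.49 for BNIP3 and 0.98 for BNIP3L, the sh#2 value of BNIP3 was 0.42 in place of -0.05, and its KD value was 1.05. Leaving out both tumors gave 1.08 for BNIP3 and 0.45 for BNIP3L with sh#1, and 0.42 and 0.21 with sh#2. The sh#1 value stayed above the sh#2 value in all of these fits, by a margin that varied. The difference of sh#1 from sh#2 was 1.07 ± 0.44 for BNIP3 and 0.76 ± 0.36 for BNIP3L. Without sh#1 tumor 1 it was 0.66 and 0.24. When the mouse to human count ratio entered the fit, the sh#1 values were 0.60 and 0.40 and the sh#2 values -0.36 and -0.23.

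A processed pseudogene of BNIP3, BNIP3P1 on chromosome 14, aligns to the BNIP3 transcript with 97.7% identity over 1541 bases, so reads of either could be counted on the other. It had 6 to 35 counts per tumor, from 2.99% to 9.59% of the BNIP3 count (median 6.32%). Its highest levels, 55.5 CPM in sh#1 tumor 1, 39.6 CPM in sh#1 tumor 2 and 30.8 CPM in shCtrl tumor 3, were in the 3 tumors where BNIP3 was highest. Added to BNIP3, it left the sh#1 value at 1.02 and the sh#2 value at -0.07.

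FKBP8 had positive log2 fold changes with both hairpins in culture and negative ones in tumors. In tumors it measured 65.8, 38.9, 35.3, 69.4 and 62.8 CPM in shCtrl, 47.2, 35.0, 49.9, 27.2 and 31.3 CPM with sh#1, and 28.4, 44.3, 18.2, 34.1 and 38.2 CPM with sh#2. The groups overlapped, since shCtrl tumors 2 and 3 lay within the KD range, and 17 to 82 counts stood behind each value. The log2 fold change was -0.56 ± 0.22 with sh#1, -0.78 ± 0.23 with sh#2 and -0.66 ± 0.19 for KD, where the cultured KD value was 0.43 ± 0.18. FUNDC1, with 4 to 31 counts, had -0.27 ± 0.25 for KD, which was -0.05 without shCtrl tumor 1, -0.44 without shCtrl tumor 5 and -0.17 without sh#2 tumor 3.

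OPTN was the adaptor with a positive log2 fold change for both hairpins in both systems. Its tumor levels were 91.5, 80.1, 111, 83.6 and 90.4 CPM in shCtrl, 158, 136, 89.1, 99.0 and 114 CPM with sh#1, and 117, 116, 158, 165 and 109 CPM with sh#2. The sh#2 tumors overlapped shCtrl only through sh#2 tumor 5 (109 CPM) and shCtrl tumor 3 (111 CPM), while sh#1 tumors 3 and 4 lay within the shCtrl range. Its log2 fold changes were 0.35 ± 0.15 and 0.56 ± 0.15 for the hairpins in order. SQSTM1, in contrast, spanned 57.0 to 127 CPM (median 63.1) in shCtrl, 55.2 to 97.1 (66.3) with sh#1 and 47.7 to 71.8 (56.4) with sh#2. Its log2 fold change of -0.32 ± 0.20 with sh#2 had the opposite sign to the 0.99 ± 0.09 seen in culture. Without shCtrl tumor 5, the tumor at 127 CPM, the sh#2 value was -0.11 and the KD value of -0.19 became 0.02.

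The ATG8 proteins varied mostly with single tumors. MAP1LC3B spanned 53.6 to 74.7 CPM (median 65.0) in shCtrl, 57.6 to 169 CPM (77.2) with sh#1 and 40.3 to 64.9 CPM (57.5) with sh#2, with log2 fold changes of 0.33 ± 0.21 and -0.27 ± 0.22. Without sh#1 tumor 1, the tumor at 169 CPM, the sh#1 value was 0.09. GABARAPL1 had 4 to 16 counts per tumor and a KD log2 fold change of 0.75 ± 0.33, which was 1.08 without shCtrl tumor 5. The tumors furthest from their groups in these genes, sh#1 tumor 1 and shCtrl tumor 5, had the lowest human total of their group, 414849 and 635024 counts, whose part in the values was not tested. GABARAPL2 spanned 39.8 to 66.6 CPM over all 15 tumors, with -0.05 ± 0.14 for KD. PINK1 had 1 or 2 counts in each shCtrl tumor and 0 or 1 in each KD tumor and did not pass the filter on low counts, so it has no fold change. In cultured cells it had 46 to 67 counts per library, at 18.9 to 30.8 CPM against 0 to 1.78 CPM in tumors, and what sets the systems apart was not tested. The overlapping gene PINK1-AS had 0 to 4 counts per tumor and no single entry of that name in the cultured counts. The systems may thus differ in how shared reads were counted, which was not tested either.

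**Figure D3:**
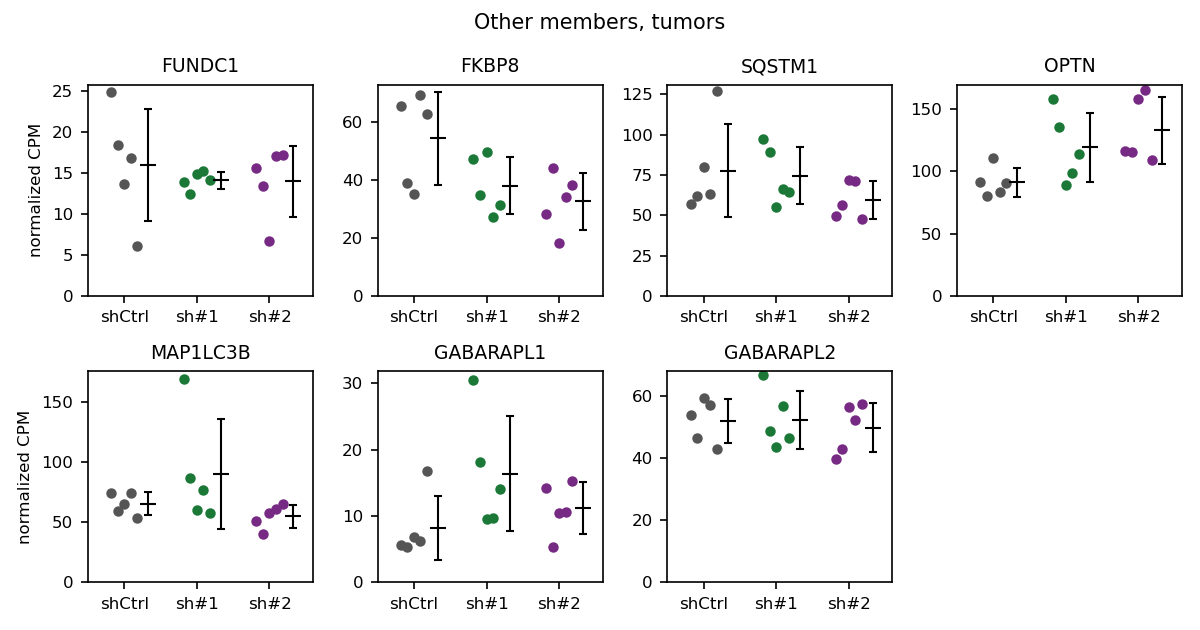
Normalized CPM of 7 members in each tumor, with mean ± SD as black bars and each axis from 0; PINK1, at 0 to 2 counts, is not drawn. FKBP8 lies lower and OPTN higher in most KD tumors, and the single high points are sh#1 tumor 1 (MAP1LC3B, GABARAPL1) and shCtrl tumor 5 (SQSTM1, GABARAPL1).

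Of the 9 members that passed the filter in tumors, 0 were called higher and 1 lower for KD (FKBP8, q under 0.1), where edgeR called 0.697% of the 9184 genes tested higher and 0.817% lower. At an unadjusted p under 0.05 there were 2 higher (OPTN and GABARAPL1) and 1 lower, and DESeq2 called 0 in either direction. The share of all genes past that unadjusted cut is not given here or below, and the shares printed for q cannot stand in for it. The FKBP8 call was made in 12 of 24 alternative fits and was lost (0 members lower) without any 1 of shCtrl tumors 1 and 4, sh#1 tumors 2, 4 and 5 and sh#2 tumors 1, 3, 4 and 5. With sh#1, 0 members were called in either direction (background 0.773% and 0.708%), with 4 higher and 1 lower at an unadjusted p under 0.05 and 0 by DESeq2. With sh#2, OPTN was called higher and FKBP8 lower (1.36% and 1.32%), and DESeq2 called OPTN but not FKBP8. The OPTN call was lost without any 1 of shCtrl tumors 1, 2 and 4 and sh#2 tumors 3 and 4, and the FKBP8 call without any 1 of shCtrl tumors 1 and 4 and sh#2 tumors 1, 3 and 4, which leaves 0 members. Between the hairpins 0 were called (0.642% and 0.544%), with 2 higher and 0 lower with sh#1 at an unadjusted p under 0.05 and 0 by DESeq2. Leaving out shCtrl tumor 3 put BNIP3 past the rule with sh#1 and OPTN for KD (1 member higher each), and leaving out shCtrl tumor 5 put GABARAPL1 past it with sh#1 and GABARAPL1 and OPTN for KD (2 members). OPTN also passed for KD without sh#1 tumor 3 or 4.

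**Figure D4:**
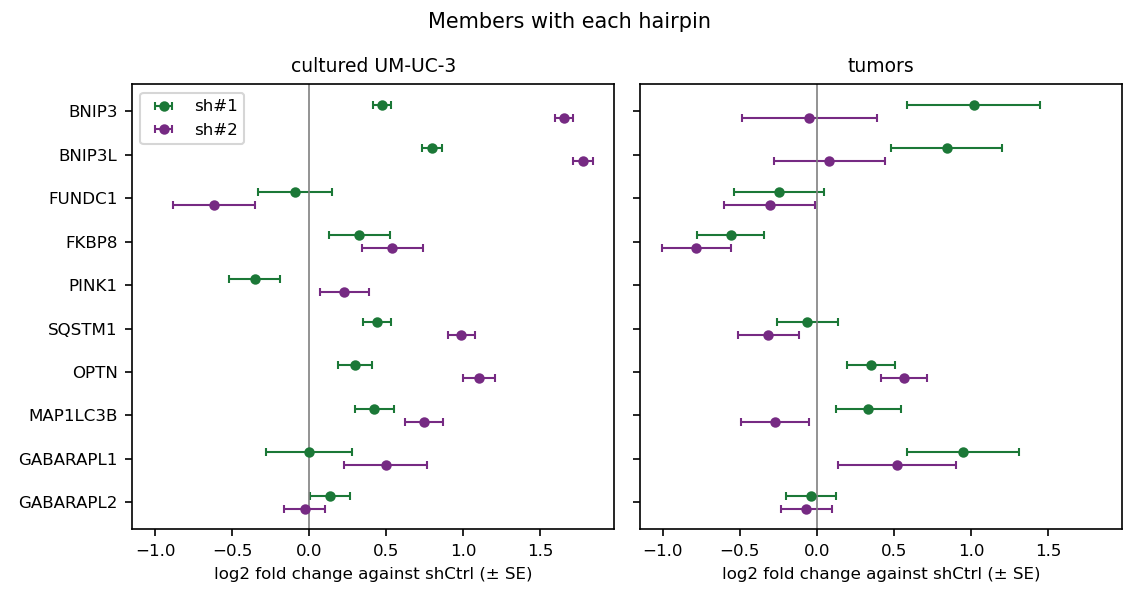
Log2 fold change against shCtrl (± SE) of each member with sh#1 and sh#2 in cultured cells (left) and tumors (right), where PINK1 is not drawn. For BNIP3 and BNIP3L sh#2 lies to the right of sh#1 in culture and to its left in tumors, and FKBP8 changes side between the panels.

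Genes whose log2 levels followed BNIP3 and BNIP3L most closely were listed by Pearson's r, as a description. In culture, with 9 libraries in 3 groups, the 5 nearest to BNIP3 among 9859 genes were MT-CO1, PGK1, FAM162A, ARFGEF3 and HSPA1A (r = 0.997 to 0.995) and the 5 nearest to BNIP3L were MME, ERO1A, EIF4EBP1, SLC2A1 and LRRC75A (r = 0.998 to 0.995). HSPA1A has a near-identical neighbour, HSPA1B, so its counts are uncertain. In tumors, over 15 libraries with each group centred on its mean, the 5 nearest to BNIP3 were PGK1, BTG1, C4orf3, SESN2 and P4HA1 (r = 0.953 to 0.894) and those nearest to BNIP3L were ERO1A, PGK1, BTG1, KLF6 and UBA6-AS1 (r = 0.975 to 0.909). PGK1, a glycolytic enzyme, was thus in the list of BNIP3 in both systems, and ERO1A, an oxidase of the endoplasmic reticulum, in that of BNIP3L. BNIP3 and BNIP3L themselves correlated with r = 0.87 in tumors, where BNIP3L ranked 11 for BNIP3. Without sh#1 tumor 1 (n = 14), PGK1 remained nearest to BNIP3 (r = 0.937), BNIP3L ranked 4 (r = 0.881), ERO1A ranked 3 for BNIP3L (r = 0.875), and KLF6 dropped to rank 292. Libraries share depth and tumor makeup, and the correlations carry no test.

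Most other genes of the pathway were not called in culture. Of 75 listed genes, 68 passed the filter, and for KD 6 were higher and 1 was lower by edgeR's quasi-likelihood test (q under 0.05), shares of the list to be read against 9.12% and 8.32% of all genes. The median log2 fold change was 0.08 over the list and 0.00 over all genes tested. The 6 of 68 higher lay near the share of all genes, so the genes named below describe single genes and not the pathway. They were spread over the roles. TOMM7, a subunit of the outer membrane import channel that stabilizes PINK1, changed by 0.45 ± 0.10 (log2, adjusted p = 0.00417), and VDAC1, the outer membrane channel that Parkin ubiquitinates, by 0.50 ± 0.13 (adjusted p = 0.018). TAX1BP1, an adaptor like SQSTM1, changed by 0.49 ± 0.11 (adjusted p = 0.00566).

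Beyond these, PIK3C3, the lipid kinase that starts the autophagosome membrane, changed by 0.72 ± 0.21 (edgeR adjusted p = 0.0252), and ATG12, part of the complex that attaches ATG8 proteins to lipid, by 0.40 ± 0.12 (adjusted p = 0.0283). TFE3, a transcription factor of lysosomal genes, changed by 0.51 ± 0.17 (adjusted p = 0.0492) and passed in only 4 of 16 alternative fits. CSNK2A1, a casein kinase 2 subunit that phosphorylates FUNDC1, fell by 0.31 on the log2 scale (SE 0.08, adjusted p = 0.0114). The sign was the same with each hairpin for all 7 genes. Of 16 alternative fits, TOMM7 passed in 16, TAX1BP1 and CSNK2A1 in 15, PIK3C3 and ATG12 in 13 and VDAC1 in 12. The VDAC1 call was lost without any 1 of shCtrl libraries 1, 2 and 3 and with the replicate numbers as a block. By role, 0 of 6 other receptors, 2 of 10 genes of the PINK1 and Parkin pathway, 1 of 5 adaptors, 1 of 10 initiation genes, 1 of 15 conjugation genes, 0 of 1 other ATG8 proteins, 0 of 6 genes of receptor turnover, 0 of 9 fusion and lysosome genes and 1 of 6 transcription factors were higher. With the limit of 1 on the log2 fold change, 0 listed genes were called for KD in either direction. The count of 6 higher fell to 3 without shCtrl library 1 or 3, to 1 without shCtrl library 2 and to 4 without sh#2 library 3, and the count of 1 lower was 0 without shCtrl library 3 and 3 without sh#1 library 1.

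With each hairpin by itself 7 listed genes were higher and 2 lower for sh#1 (background 11.8% and 10.6%), and 16 higher and 6 lower for sh#2 (19.5% and 18.8%). Leaving out sh#1 library 1 left 4 higher with sh#1, and leaving out sh#2 library 1 left 3 lower with sh#2. The fusion and lysosome group, singled out after its values were seen, had 5 of its 9 tested genes higher with sh#2. They were the lysosomal membrane proteins LAMP1 and LAMP2, the proteases CTSB and CTSD, and RAB7A, a GTPase of late endosomes, with log2 fold changes of 0.25 to 0.35. With sh#1 none of the 9 was higher (0 of 9). LAMP1, LAMP2 and CTSD had log2 fold changes of -0.12 ± 0.07, -0.18 ± 0.11 and -0.04 ± 0.09 with sh#1 and RAB7A of 0.05 ± 0.09, which did not pass. CTSB fell with sh#1, with a log2 fold change of -0.88 ± 0.06 against 0.35 ± 0.06 with sh#2, and the hairpins differed by -1.23 ± 0.06 (edgeR adjusted p = 2.16e-23).

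In tumors 62 of the 75 genes passed the filter and 0 were called in either direction for KD by edgeR (background 0.697% and 0.817%). At an unadjusted p under 0.05 there were 6 higher and 2 lower, and DESeq2 called 0. No share of all genes is given here for the unadjusted cut. The edgeR count for KD reached 2 higher without shCtrl tumor 5 and 1 without sh#1 tumor 3. The median log2 fold change was 0.06 over the list and 0.01 over all genes. With sh#1 0 were called (background 0.773% and 0.708%), with 3 higher and 0 lower at an unadjusted p under 0.05 and 0 by DESeq2. With sh#2 2 were higher and 0 lower (background 1.36% and 1.32%). The 2 were CTSB at 0.50 ± 0.14 (edgeR adjusted p = 0.053) and LAMP2 at 0.50 ± 0.13 (adjusted p = 0.0397), both also higher with sh#2 in culture. DESeq2 called 2 as well. The count was 1 without shCtrl tumor 1 or sh#2 tumor 1 or 2 and 0 without shCtrl tumor 2 or sh#2 tumor 3, and with sh#1 it was 1 without shCtrl tumor 5 or sh#1 tumor 3.

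**Figure D5:**
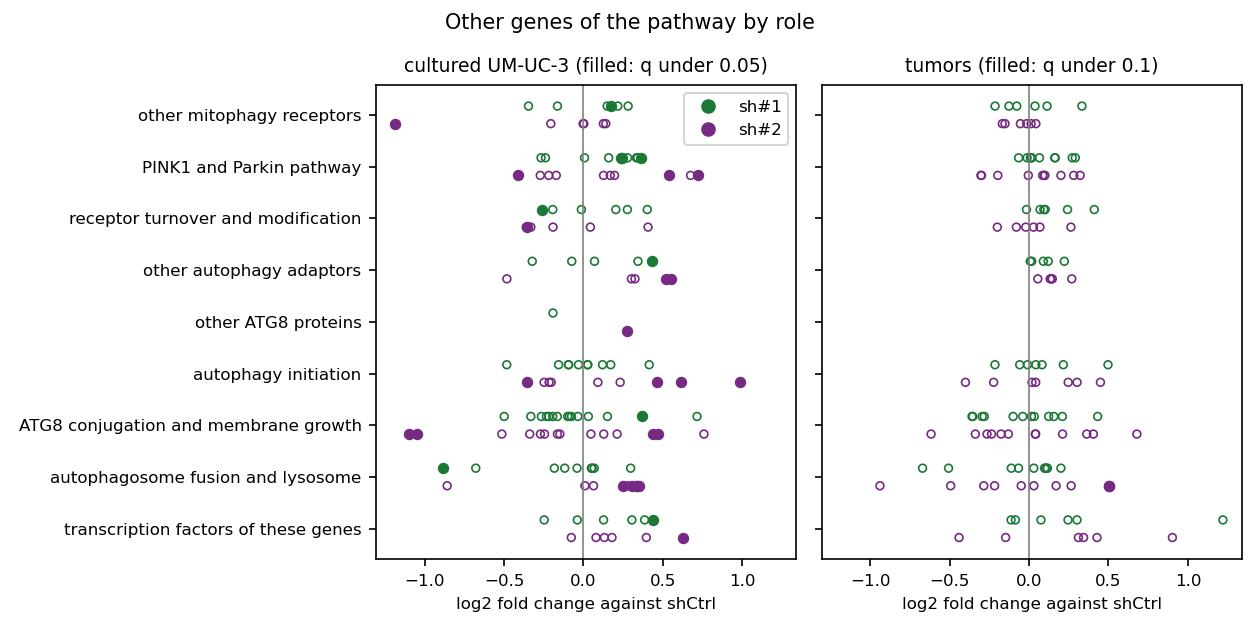
Log2 fold change against shCtrl of the other pathway genes by role, with sh#1 in green and sh#2 in purple, for 68 genes in cultured cells (left, filled points q under 0.05) and 62 in tumors (right, filled points q under 0.1). Filled points lie on both sides of 0 in culture, and the only filled points in tumors are CTSB and LAMP2 with sh#2, which overlap at 0.50.

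The mouse genes of the same tumors come from host cells, which carry no hairpin, and were not used in choosing the members. Of the 10 mouse orthologs only Sqstm1 passed the filter on low counts. It measured 101 to 172 CPM (median 130) in shCtrl tumors, 94.0 to 413 CPM (133) with sh#1 and 141 to 197 CPM (187) with sh#2, and the 413 CPM was sh#1 tumor 1, the tumor with the highest share of mouse counts. The KD groups overlapped shCtrl and the log2 fold change was 0.45 ± 0.29 (edgeR adjusted p = 0.902). Bnip3 had 0 to 3 counts and Bnip3l 3 to 18 counts per tumor, too few to test. Of 1669 mouse genes tested, edgeR called 0 (0%) higher and 0 (0%) lower, with 57 higher and 35 lower at an unadjusted p under 0.05, and DESeq2 called 1 higher and 0 lower.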

How the data were processed

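RNA-seq counts came from 9 cultured libraries and 15 xenograft tumors of the UM-UC-3 line. The values deposited by the authors are raw counts per gene. Single reads of 75 bases from cultured cells were trimmed with CLC Genomics Workbench and aligned to hg38 with RaNAseq by the authors, and those from tumors were treated with Trim Galore and HISAT2. The counting program, the use of molecular identifiers, the mouse build and how human and mouse reads were parted are not given in the sources used here. In the cultured counts, 13 rows without a gene name were dropped.

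The deposited counts were fitted over all genes with edgeR 4.0.16 in R 4.3.3 (TMM scaling, filterByExpr, robust quasi-likelihood test, Benjamini-Hochberg adjustment), with q under 0.05 in cultured cells and under 0.1 in tumors. KD was both hairpins as 1 group, and a 3-group model gave the single hairpins and the gap between them. SE is the absolute log2 fold change divided by the square root of F. The members, the lists and the tests were chosen with earlier results of these data known. All members were named, and of the 75 other genes those past the threshold for KD with a mean of at least 20 counts, up to 10 per system.

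Alternatives were DESeq2 1.42.0, upper quartile scaling, no filter, 10 or more counts in every library, leaving out single replicates, a replicate block, 3 groups, near copies added and, in tumors, the mouse to human count ratio as a covariate. A log2 fold limit of 1 in cultured cells, leaving out sh#1 tumor 1 and shCtrl tumor 3 together, and the likeness lists without sh#1 tumor 1, were added after seeing the data. The KD fit of the cultured, tumor and mouse counts was tested first on simulated data, with the same change given to both hairpins. The 3-group model and the alternatives were not tested in this way. All 69 pairs of replicates differed beyond sampling noise (chi-square per degree of freedom at least 1.30). Totals of 414849 to 2777019 counts limit genes with few counts. Transcripts of near copies were aligned with blastn 2.17.0.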

Additional observations from a re-analysis of the deposited data

Results flagged for a closer look

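In 4 of the 27 groups of 5 tumors examined for members, 1 tumor lay further from the rest than Dixon's 95% limit allows, where chance alone flags about 1 group in 20. The 27 groups share the same 15 tumors and are not independent, so 4 of 27 is no test against that rate. BNIP3 was at 513 CPM in shCtrl tumor 3 against 148 to 224 CPM in the other shCtrl tumors. BNIP3L was at 1174 CPM in sh#1 tumor 1 against 296 to 392 CPM, and MAP1LC3B in the same tumor at 169 CPM against 57.6 to 87.0 CPM. That tumor had 414849 human counts and 30.0% mouse counts, and the part of either in these levels was not tested. GABARAPL1 was at 16.9 CPM in shCtrl tumor 5 against 5.41 to 6.84 CPM, which rests on 11 counts.

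For FKBP8 with each hairpin and for SQSTM1 and MAP1LC3B with sh#2 alone, every KD library lay on one side of the shCtrl mean in culture and every KD tumor on the other side in tumors. The difference between the systems was not tested, because they were sequenced separately. FKBP8 had log2 fold changes of -0.56 in tumors against 0.32 in culture with sh#1, -0.78 against 0.54 with sh#2 and -0.66 against 0.43 for KD. SQSTM1 had -0.32 against 0.99 with sh#2, and MAP1LC3B had -0.27 against 0.74 with sh#2. Some margins were narrow. The SQSTM1 shCtrl mean in tumors, 77.7 CPM, held tumor 5 at 127 CPM, without which the sh#2 value was -0.11. The highest sh#2 tumor of MAP1LC3B lay at 64.9 CPM against a shCtrl mean of 65.5 CPM. In culture the lowest sh#1 library of FKBP8 lay at 15.9 CPM against a shCtrl mean of 15.6 CPM. The share of all genes with such a pattern is not given here, so the pattern describes these members only.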

How the results depend on the processing

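No member and no named gene changed direction where it was called. Of 76 log2 fold changes of members, 12 changed sign in at least 1 alternative, all with a reported size of at most 0.19. Among them were BNIP3 with sh#2 in tumors (-0.05, and 0.02 to 0.42 in 4 of 24 fits) and BNIP3L with sh#2 in tumors (0.08, and down to -0.23 in 2 of 24). In culture 14 of 640 alternative member values moved by more than the SD between replicates, and they were KD values of BNIP3 and BNIP3L, 7 each, which spanned 1.05 to 1.30 and 1.25 to 1.47. In tumors 1 of 856 did (BNIP3L with sh#1, 0.31), but the SD there was so wide that BNIP3 for KD stayed within it from 0.18 to 1.05. Counts of calls moved more. In culture, members higher for KD were 5 with DESeq2 and 6 with 3 groups, and with sh#1 3 with DESeq2. Members lower with sh#2 were 1 (FUNDC1) with upper quartile scaling, with at least 10 counts in every library and with the replicate block. Of the wider list, DESeq2 gave 4 higher with sh#1 and, between the hairpins, 1 higher and 7 lower. Lower for KD were 2 without the filter, with upper quartile scaling and with at least 10 counts, and 5 with 3 groups. With a log2 fold change past 1 in size as well, members higher were 1 for KD, 0 with sh#1 and 3 with sh#2, and 1 was lower between the hairpins. Wider genes were then 0 in either direction for KD and sh#1, 0 higher and 3 lower with sh#2, and 1 higher and 1 lower between the hairpins. In tumors, members lower for KD were 0 with DESeq2, the replicate block and the mouse to human ratio, as were those lower with sh#2, and those higher with sh#2 were 0 with that ratio. Members higher for KD were 1 (OPTN) without the filter, with at least 10 counts, with 3 groups and without both doubted tumors, which also gave 2 higher with sh#1 (BNIP3 and BNIP3L). Members higher with sh#1 against sh#2 were 1 without the filter and with the ratio, and wider genes higher with sh#2 were 1 without the filter. The cause of these moves was not tested.

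Leaving out 1 library gave, in culture, members higher of 1 to 5 for KD, 3 to 5 with sh#1 and 5 to 6 with sh#2, members lower of 0 to 1 with sh#2, and members lower with sh#1 against sh#2 of 5 to 6. The wider list gave 1 to 6 higher and 0 to 3 lower for KD, 4 to 7 higher with sh#1, 3 to 7 lower with sh#2, and 1 to 9 higher and 8 to 13 lower between the hairpins. In tumors the ranges were 0 to 2 members higher and 0 to 1 lower for KD, 0 to 1 higher with sh#1, 0 to 1 in each direction with sh#2, and 0 to 2, 0 to 1 and 0 to 3 wider genes higher for KD, sh#1 and sh#2. With the replicate block, wider genes higher for KD in culture were 3. Same-numbered libraries correlated by -0.01 to 0.06 in culture and -0.10 to 0.13 in tumors, so the numbers were not taken to pair the samples.

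GABARAPL1 in tumors and all mouse orthologs but Sqstm1 had few counts, which limits their precision. PINK1 had 0 to 2 counts in tumors and 46 to 67 in culture, and the cause of that gap was not tested.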
